A study of Mus musculus with 6 samples.

Results

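The genes described here encode the enzymes and carriers of fatty acid oxidation, and their mRNA signals were compared between the cochleae of WT and *Cmah*-null mice. A list of 38 genes was given by name and was drawn up with earlier results of these data known. By symbol 37 of them were found among the 18138 gene symbols of the array. *Hadha* had no match by symbol or gene ID and was not analysed here. Each group was 3 mice aged 12 months on the C57BL/6 background (C57BL/6J in the methods), with 1 array of the Illumina MouseRef-8 v2.0 BeadChip per sample. Genotype is the only difference between the groups that the sources used here give. *Cmah* encodes CMP-Neu5Ac hydroxylase, the enzyme that makes the sialic acid Neu5Gc, and the null mice carried the *Cmah* tm1Ykoz knockout allele, which is not limited to the cochlea. The p-values measure the spread between these samples. In the deposited table the columns of the *Cmah*-null arrays are headed "old".

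Fatty acids are bound in the cytosol by fatty acid binding proteins, joined to coenzyme A by acyl-CoA synthetases, and carried into mitochondria by the carnitine shuttle. There each turn of beta-oxidation runs through an acyl-CoA dehydrogenase, a hydratase, a hydroxyacyl-CoA dehydrogenase and a thiolase. Auxiliary enzymes deal with double bonds, electron transfer flavoprotein passes electrons to the respiratory chain, and peroxisomes oxidise very long and branched chains by a separate set of enzymes. The pathway is known for its high activity in heart, oxidative skeletal muscle and brown fat.

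All 6 arrays gave usable signals, with between 13873 and 15223 of 25697 probes detected (detection p under 0.05 against negative controls). Replicates 1 and 2 of the *Cmah*-null group resembled each other most, with an SD of log2 differences of 0.126 over all probes against 0.307 to 0.636 for the other pairs. A probe was read from a median of 32 to 34 beads on WT replicate 1 and *Cmah*-null replicates 1 and 2, and 38 to 39 on the other 3 arrays. The probe for *Cmah* was detected on 1 WT and 2 *Cmah*-null arrays. Its log2 signals were near background, at 7.27, 7.28 and 7.87 in WT and 7.95, 7.98 and 7.27 in *Cmah*-null mice, a difference of 0.26 (SE 0.26), and so were not lower in the null group. Which part of the gene the probe reads is not given in the sources used here, so it does not settle the genotype. Of 16 cochlear marker genes 14 were on the array, and *Otos*, *Coch*, *Gjb2*, *Gjb6* and *Myo7a* were among the 8 detected on all 6 arrays. The hair cell genes *Slc26a5* and *Pou4f3*, and also *Strc* and *Tectb*, were detected on none.

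By an unadjusted threshold, 18 of the 32 members in the 6 steps from uptake to electron transfer had lower mRNA signals in *Cmah*-null mice, with at least 1 in each step, and 0 of the 5 members listed under the peroxisomal step did. *Peci*, listed with the auxiliary enzymes, is known from peroxisomes too, and it was among the lower genes. A gene is called lower here when its brightest probe was at least 1.5-fold lower with an unadjusted limma p under 0.05, the kind of threshold used for these data by their authors. By this rule 18 of 37 members were lower and 0 were higher, beside 1.46 percent lower and 1.61 percent higher among all 18138 symbols. Beside that share 0 of 5 does not set the peroxisomal members apart from all symbols. Of these 5 members 4 had values below 0. At an adjusted p under 0.05 (limma, Benjamini-Hochberg over all probes) 0 members passed and 0 of 25697 probes passed, a share of 0.00 percent; 20 members and 2199 probes had an unadjusted p under 0.05. The smallest adjusted p of a member was 0.250. With the arrays scaled to one median in place of quantile normalization 1 member was called lower, *Hadhb*, and 27 of 37 had values below 0, while the median of all detected symbols moved from 0.04 to 0.34.

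The median log2 fold change over the members was -0.67, with a range from -1.53 to 0.42, beside a median of 0.01 over all symbols. These and the following differences are *Cmah*-null minus WT on the log2 scale, given with their standard error (SE). A value below 0 was seen for 32 of 37 members, where 46.9 percent of all symbols had one. In 21 members every *Cmah*-null array lay below every WT array, a pattern that 6.67 percent of all symbols showed, and in 1 member every *Cmah*-null array lay above, a pattern of 10.0 percent of all symbols. Of the members 31 were detected on all 6 arrays, and these held all 18 called genes, with 26 values below 0. Among the 9907 symbols detected on all arrays 2.54 percent were called lower and 2.73 percent higher, 44.9 percent had values below 0, all null arrays were below WT in 7.43 percent and above in 12.1 percent, and the detected members had 19 and 1 of these. The other 6 members were *Cd36*, *Cpt1a*, *Acad8*, *Hadh*, *Acat1* and *Ehhadh*. The 18 called genes lay on 12 chromosomes.

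**Figure D1:**
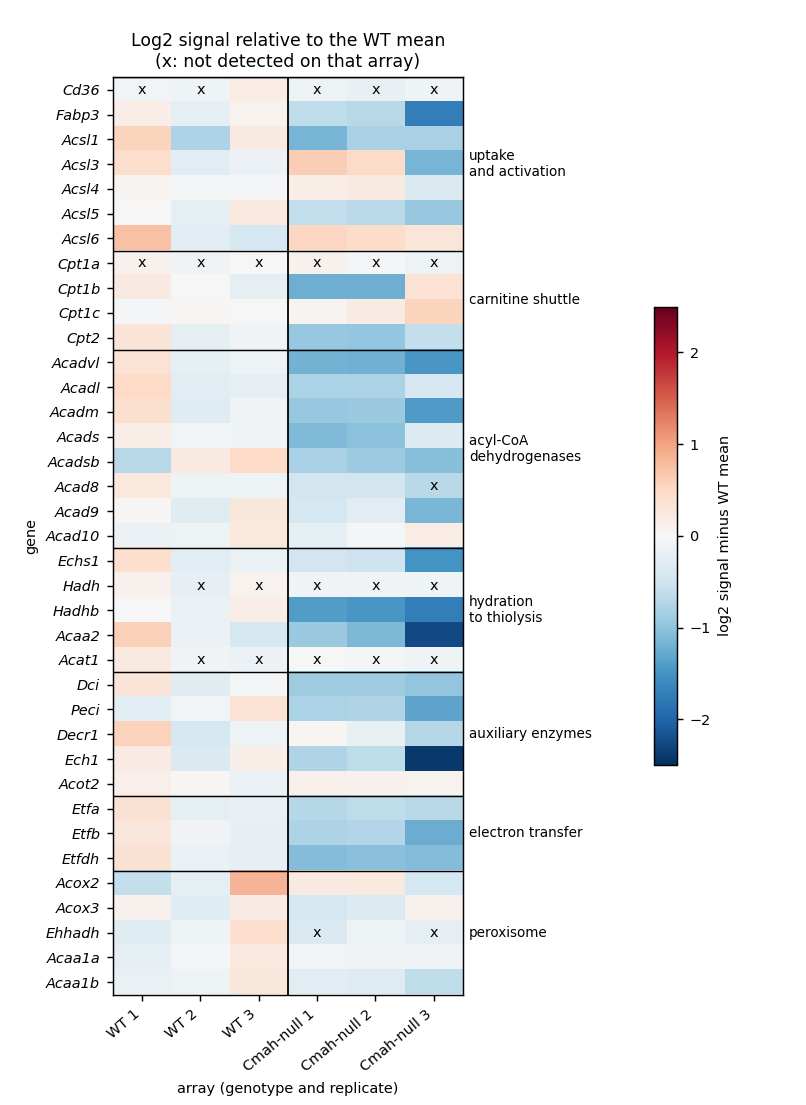
Log2 signal of each member on each of the 6 arrays minus the mean of the 3 WT arrays, in colour (blue lower, red higher, log2 scale), grouped by step, with crosses where a probe was not detected on that array. The *Cmah*-null columns are blue through most rows from *Cpt2* to *Etfdh*, and pale in the peroxisomal rows at the foot.

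The step of activation was split. *Fabp3*, the fatty acid binding protein of heart and muscle, had log2 signals of 13.33, 12.92 and 13.26 in WT replicates 1 to 3 and of 12.54, 12.47 and 11.44 in *Cmah*-null replicates 1 to 3. Its difference was -1.02 (SE 0.32, limma adjusted p 0.525). The groups did not overlap, and *Cmah*-null replicate 3 was the lowest array by more than 1 log2 unit. *Acsl5*, an acyl-CoA synthetase, gave 12.86, 12.61 and 13.11 against 12.25, 12.18 and 11.91, a difference of -0.74 (SE 0.16, limma adjusted p 0.397). *Acsl1*, the synthetase that predominates in fat, heart and muscle, gave 11.65, 10.31 and 11.31 against 9.93, 10.27 and 10.28, a difference of -0.93 (SE 0.35, limma adjusted p 0.571). The *Acsl1* groups were separated by a narrow gap only, since WT replicate 2 was almost at the level of *Cmah*-null replicates 2 and 3.

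The other 3 acyl-CoA synthetases of the list were not called, and their groups overlapped. *Acsl3*, a synthetase of the endoplasmic reticulum and lipid droplets, read 11.51, 10.79 and 10.94 in WT and 11.69, 11.56 and 9.93 in *Cmah*-null mice, so that its difference of -0.02 (SE 0.51) stood between arrays that went in opposite directions. *Acsl4*, which prefers arachidonic acid, had 8.15, 8.03 and 8.06 in WT and 8.25, 8.30 and 7.72 in *Cmah*-null mice, the difference being 0.01 (SE 0.17) for this probe and -0.05 (SE 0.11) for the other probe detected on all arrays. *Acsl6*, known from brain, stood at 11.85, 10.83 and 10.69 against 11.63, 11.58 and 11.43, with the largest positive value of any member, 0.42 (SE 0.31, limma unadjusted p 0.231). Its WT replicate 1 was the highest of all 6 arrays while the other WT arrays were the lowest. *Cd36*, a fatty acid transporter at the cell surface, was detected on 1 array, in WT, and was otherwise not well above background.

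In the carnitine shuttle the inner and outer membrane enzymes gave different patterns. *Cpt2*, the inner membrane carnitine palmitoyltransferase, was called lower, with log2 signals of 12.39, 11.83 and 11.97 in WT and 11.12, 11.09 and 11.46 in *Cmah*-null mice. The difference was -0.84 (SE 0.18, limma adjusted p 0.399), and the groups were apart. *Cpt1b*, the muscle and brown fat form of the outer membrane enzyme, had 12.71, 12.49 and 12.23 in WT and 11.25, 11.26 and 12.85 in *Cmah*-null mice, a difference of -0.69 (SE 0.46, limma adjusted p 0.715). *Cmah*-null replicates 1 and 2 were the lowest arrays for this gene and replicate 3 was the highest of all 6, so the gene was not called, and without replicate 3 it was called lower at -1.22. The second *Cpt1b* probe gave the same order within the null group, with 10.78, 10.55 and 10.33 in WT against 9.11, 9.34 and 10.66, and a difference of -0.85 (SE 0.42).

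*Cpt1c*, the form known from neurons, was the member with every *Cmah*-null array above every WT array. Its log2 signals were 8.23, 8.28 and 8.26 in WT and 8.33, 8.47 and 8.81 in *Cmah*-null mice, and its difference of 0.28 (SE 0.14, limma unadjusted p 0.086) was under 1.5-fold. *Cpt1a*, the liver form, was detected on 0 of 6 arrays. *Slc25a20*, the carnitine-acylcarnitine carrier that links CPT1 to CPT2, stands outside the member list and was 13.12, 12.20 and 12.28 in WT and 11.38, 11.53 and 11.59 in *Cmah*-null mice, a difference of -1.03 (SE 0.26, limma adjusted p 0.435).

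Markers of skeletal muscle, a tissue that is no part of the cochlea, varied between the arrays too. Of 16 skeletal muscle markers, all on the array, 14 were detected on all 6 arrays, *Myh7* was detected on none, and 1 was called lower, *Mb*, at -0.87. Their summed signal was between 280923 and 479340 in WT and between 293935 and 344253 in *Cmah*-null mice, lowest in WT replicate 3 and highest within the null group in replicate 3. Of the 14 detected markers 10 were higher on *Cmah*-null replicate 3 than on both other null arrays, as *Cpt1b* was, and 3 were lower: *Mylpf* at 11.47 against 13.93 and 14.02, *Tnni2* at 14.30 against 14.81 and 14.88, and *Mb* at 13.37 against 13.79 and 13.80. Values below 0 were seen in 15 of the 16, with a median log2 fold change of -0.51. These include *Myh2* at -1.2e-05, which is no difference, and the undetected *Myh7*. In every muscle marker other than *Mb* and *Myh7* the groups overlapped.

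Of 8 brown fat markers, 6 were detected on all 6 arrays and *Dio2* on none. In that list 5 were called lower: *Ucp1* at -2.11, *Cidea* at -2.02, *Cox7a1* at -1.54, *Cox8b* at -1.44 and *Ppargc1a* at -0.65. The summed signal of the brown fat markers ran from 43841 to 76269 in WT and from 11346 to 27268 in *Cmah*-null mice, without overlap. WT replicate 1 was highest and *Cmah*-null replicate 3 lowest. The sum leaned most on *Cox8b* and *Cox7a1*, which had the highest signals of the list on every array. Whether the signals of these genes came from brown fat or from muscle in the samples was not tested, so the sum is no measure of brown fat alone. *Adrb3*, also detected on all 6 arrays, was at -0.03 (SE 0.10). *Elovl3*, detected on 4 arrays, was at -0.64 (SE 0.31) and was not called. White fat markers (8 of 10 on the array, *Retn* detected on none) had summed signals of 39228 to 75301 and 43657 to 60694, and 1 of them, *Lep*, was called lower. In the cochlear list 0 of 14 were called, with a median of 0.07 and summed signals of 13383 to 27922 in WT and 22421 to 23145 in *Cmah*-null mice. The cochlear sum was lowest on WT replicate 1, at 13383, against 23356 and 27922 on WT replicates 2 and 3. It leaned most on *Gjb6* and *Gjb2*, and single markers went in opposite directions within the null group. On *Cmah*-null replicate 3 *Otos* was at 8.82 against 10.62 and 10.69 on replicates 1 and 2, and *Gjb2* at 13.39 against 12.54 and 12.56. The part that muscle or fat in the samples plays in the values of the oxidation genes was not tested, and in bulk tissue fewer cells of a type cannot be told apart from less RNA per cell.

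**Figure D2:**
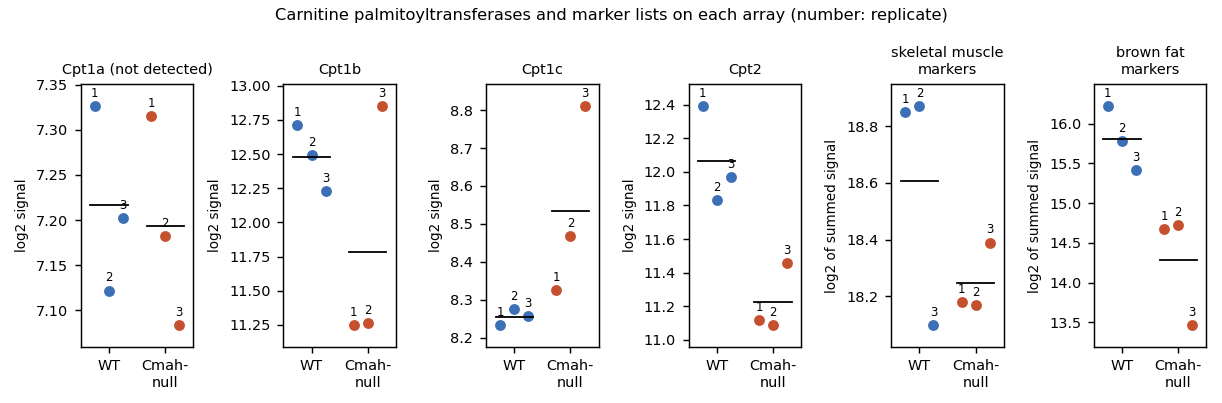
Log2 signal of the 4 carnitine palmitoyltransferase genes and log2 of the summed signal of the skeletal muscle and brown fat markers on each array, with points numbered by replicate and lines at group means; each panel has its own vertical axis, which does not start at 0. *Cmah*-null replicate 3 is the highest of 6 arrays for *Cpt1b* at 12.85 and the lowest for the brown fat sum.

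The acyl-CoA dehydrogenases catalyse the first oxidation of each turn and differ in the chain length or branching they accept. Of 8 members 5 were called lower and all 8 values were below 0, with a median of -0.75. *Acadvl*, the very long chain enzyme, had log2 signals of 13.50, 12.89 and 13.01 in WT and 11.95, 11.93 and 11.68 in *Cmah*-null mice, a difference of -1.29 (SE 0.18, limma adjusted p 0.365). *Acadm*, the medium chain enzyme, had 14.68, 13.97 and 14.19 against 13.33, 13.35 and 12.86, a difference of -1.10 (SE 0.23, limma adjusted p 0.397). For both genes the groups were separated by more than 0.5 log2 units at their nearest arrays.

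*Acads*, the short chain enzyme, gave 11.06, 10.84 and 10.81 in WT and 9.80, 9.87 and 10.55 in *Cmah*-null mice, a difference of -0.83 (SE 0.22, limma adjusted p 0.453). Replicate 3 was the null array nearest to WT for this gene. *Acadl*, the long chain enzyme, read 10.90, 10.15 and 10.18 against 9.62, 9.62 and 9.98 on its brightest probe, at -0.67 (SE 0.24, limma adjusted p 0.551). A second *Acadl* probe read 10.39, 9.32 and 9.34 against 8.35, 8.62 and 8.28, at -1.27 (SE 0.31). The 2 *Acadl* probes placed *Cmah*-null replicate 3 differently, highest of the null arrays on the first and lowest on the second, and WT replicate 1 was high on both.

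*Acadsb*, which acts on short and branched chains from isoleucine breakdown, had 10.96, 11.88 and 12.12 in WT and 10.84, 10.74 and 10.59 in *Cmah*-null mice, a difference of -0.93 (SE 0.30, limma adjusted p 0.538). Here WT replicate 1 was the lowest WT array and lay close to the null arrays, the opposite of its place in most members. *Acad8*, the isobutyryl-CoA dehydrogenase of valine breakdown, was 8.49, 8.09 and 8.09 against 7.76, 7.77 and 7.53; its groups did not overlap, and its difference of -0.54 (SE 0.14, limma unadjusted p 0.0095) was just under 1.5-fold, with detection on 5 of 6 arrays. *Acad9*, needed for assembly of respiratory complex I, had -0.61 (SE 0.27, limma unadjusted p 0.067) on its brightest probe and -0.66 on another that shares 47 of 50 bases with it. *Acad10*, whose probes differed in sign at -0.03 and 0.05, showed 8.66, 8.67 and 9.06 in WT and 8.58, 8.75 and 8.98 in *Cmah*-null mice, with overlapping groups.

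**Figure D3:**
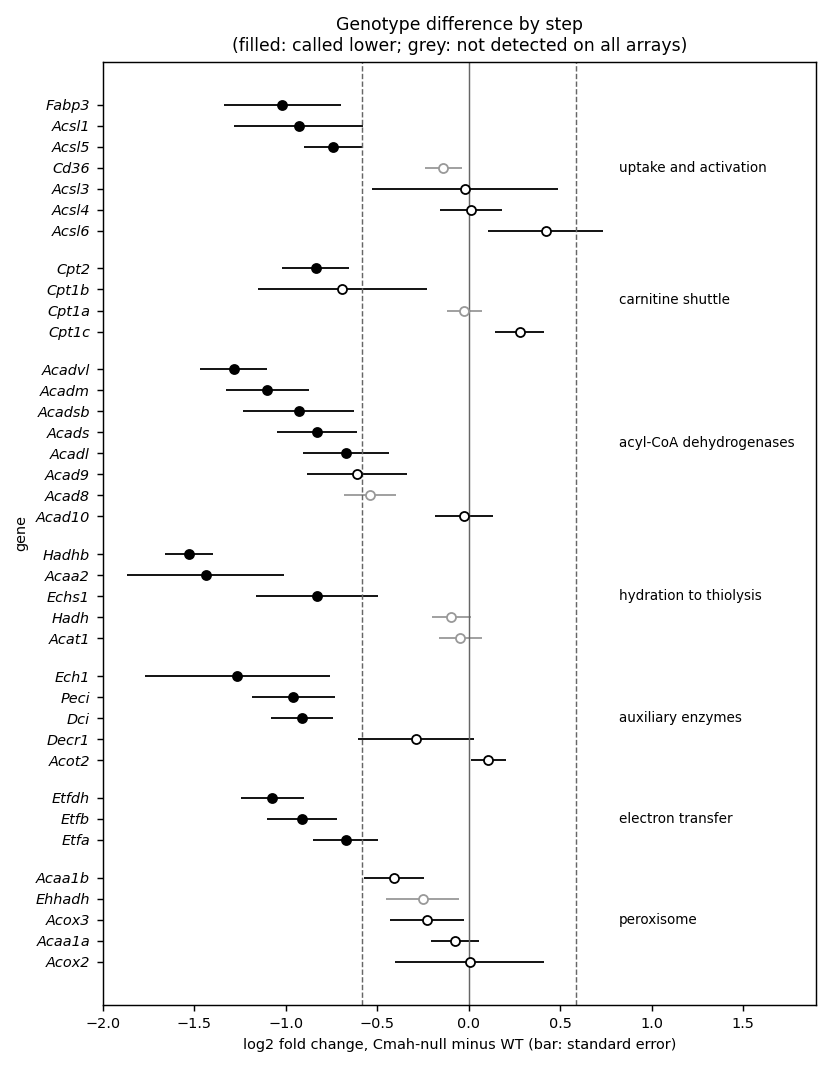
Log2 fold change of each member's brightest probe, *Cmah*-null minus WT (horizontal axis), with bars for the standard error, by step; filled points are the 18 genes called lower, grey marks genes not detected on all 6 arrays, and dashed lines mark 1.5-fold in each direction. Called genes fill most of the rows from the dehydrogenases to electron transfer, and the peroxisomal rows hold none.

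After the first oxidation the chain is hydrated, oxidised again and cut. *Hadhb*, the beta subunit of the mitochondrial trifunctional protein and its long chain thiolase, had the lowest value among the brightest probes. Its log2 signals were 13.52, 13.36 and 13.68 in WT and 12.12, 12.07 and 11.79 in *Cmah*-null mice, a difference of -1.53 (SE 0.13, limma unadjusted p 2.83e-05, adjusted p 0.250). The nearest arrays of the groups were more than 1 log2 unit apart, and the arrays within each group were close together. The start site of *Hadhb* (RefSeq, GRCm38.p6, chromosome 5, position 30155253, forward strand) lies head to head with that of its partner subunit *Hadha* (position 30154980, reverse strand), 273 bases away.

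*Acaa2*, the mitochondrial thiolase for medium chains, read 12.67, 11.93 and 11.65 in WT and 11.15, 10.96 and 9.83 in *Cmah*-null mice, a difference of -1.44 (SE 0.43, limma adjusted p 0.505). All 4 of its probes were called lower, from -1.75 to -1.44, some of them below *Hadhb*, though some of them overlap in sequence by up to 49 of 50 bases and so are not separate measurements. *Echs1*, the short chain enoyl-CoA hydratase, read 12.80, 12.12 and 12.22 against 11.90, 11.86 and 10.89, at -0.83 (SE 0.33, limma unadjusted p 0.048, adjusted p 0.580). Both genes were lowest on *Cmah*-null replicate 3, and without that array the groups were closer. *Hadh*, the hydroxyacyl-CoA dehydrogenase for short chains, and *Acat1*, the acetoacetyl-CoA thiolase, were each detected on 1 array, in WT, and otherwise not well above background.

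Most of the auxiliary enzymes prepare unsaturated chains for the main cycle, and the thioesterase gene *Acot2* is listed with them. Of the 5 genes 3 were called lower. *Dci*, the enoyl-CoA isomerase now named *Eci1*, had log2 signals of 12.54, 11.91 and 12.20 in WT and 11.34, 11.34 and 11.23 in *Cmah*-null mice, a difference of -0.91 (SE 0.17, limma adjusted p 0.397). *Peci*, the isomerase now named *Eci2* and known from peroxisomes and mitochondria, had 10.45, 10.65 and 11.08 against 9.93, 9.97 and 9.39, at -0.96 (SE 0.23, limma adjusted p 0.422). *Ech1*, the dienoyl-CoA isomerase, had 13.94, 13.37 and 13.89 against 12.99, 13.11 and 11.32, at -1.26 (SE 0.51, limma unadjusted p 0.048, adjusted p 0.580). *Dci* was near uniform within the null group, whereas in *Ech1* replicate 3 stood apart from the other two, with a difference of -1.73 from their mean.

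*Decr1*, the dienoyl-CoA reductase, was not called: it read 10.86, 9.84 and 10.15 in WT and 10.32, 10.09 and 9.57 in *Cmah*-null mice, with overlapping groups and a difference of -0.29 (SE 0.32). *Acot2*, a mitochondrial acyl-CoA thioesterase, read 7.96, 7.88 and 7.69 against 7.97, 7.95 and 7.93, at 0.11 (SE 0.09). It was the auxiliary gene with the smallest difference.

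All 3 genes of electron transfer were called lower. They carry electrons from the acyl-CoA dehydrogenases to ubiquinone, and from several dehydrogenases of amino acid breakdown too. *Etfa*, the alpha subunit of electron transfer flavoprotein, had log2 signals of 14.65, 14.04 and 14.07 in WT and 13.55, 13.63 and 13.57 in *Cmah*-null mice, a difference of -0.67 (SE 0.18, limma adjusted p 0.454), and its other probes gave -0.96 and -0.93. *Etfb*, the beta subunit, had 14.05, 13.68 and 13.57 against 13.00, 13.04 and 12.53, at -0.91 (SE 0.19, limma adjusted p 0.397), with -0.75 on a second probe. *Etfdh*, the ubiquinone oxidoreductase, had 11.56, 11.00 and 10.96 against 10.08, 10.13 and 10.08, at -1.07 (SE 0.17, limma adjusted p 0.365). The groups were apart in all 3 genes, WT replicate 1 was the highest array in each, and the null arrays of *Etfdh* differed by under 0.1 log2 units.

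**Figure D4:**
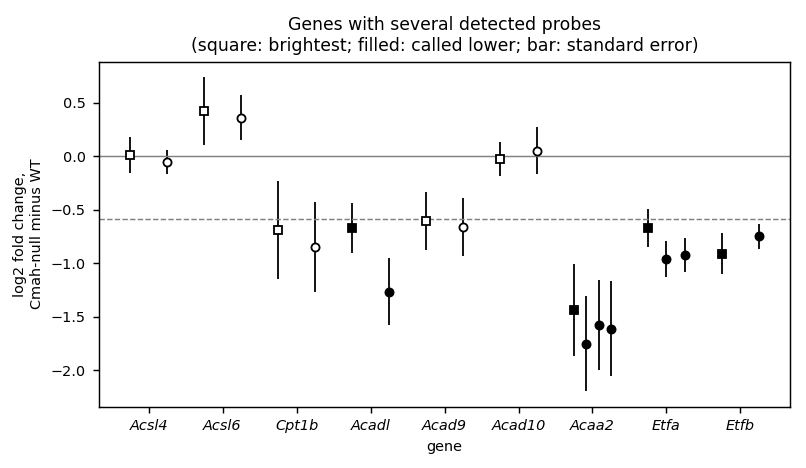
Log2 fold change, *Cmah*-null minus WT (vertical axis), with bars for the standard error, for the 9 members with more than 1 probe detected on all 6 arrays; squares are the brightest probe, filled symbols are called lower and the dashed line marks 1.5-fold lower. Probes of 7 members share a sign, and those of *Acsl4* and *Acad10* lie on both sides of 0.

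In the peroxisomal step 0 of 5 genes were called, where 1.46 percent of all symbols were called lower. Their median was -0.23 with a range from -0.41 to 0.00. With *Peci* counted as peroxisomal it was 1 of 6, with a median of -0.24. No other auxiliary enzyme was moved, *Ech1* among them, and whether they are found in peroxisomes too was not examined. The members from the carnitine shuttle to electron transfer, without *Peci*, had 14 of 24 called and a median of -0.76. The difference between these sets was not tested. *Acaa1a*, a peroxisomal thiolase, had log2 signals of 12.73, 12.91 and 13.20 in WT and 12.89, 12.87 and 12.86 in *Cmah*-null mice, a difference of -0.08 (SE 0.13). *Acaa1b*, the second mouse gene for this thiolase, had 9.71, 9.74 and 10.15 against 9.60, 9.54 and 9.23, at -0.41 (SE 0.16, limma unadjusted p 0.047, adjusted p 0.580). The *Acaa1b* groups were apart but the difference was under 1.5-fold, while the *Acaa1a* null arrays lay inside the WT range. The probes of these near-identical genes share at most 5 bases in a row.

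*Acox2*, the acyl-CoA oxidase for bile acid intermediates and branched chains, read 8.46, 8.80 and 9.89 in WT and 9.26, 9.29 and 8.60 in *Cmah*-null mice, a difference of 0.00 (SE 0.41). *Acox3*, another branched chain oxidase, read 9.90, 9.49 and 10.00 against 9.35, 9.45 and 9.91, at -0.23 (SE 0.20). *Ehhadh*, the peroxisomal bifunctional enzyme, was detected on 4 of 6 arrays and had -0.25 (SE 0.20). Groups overlapped in all 3 of these genes, and in *Acox2* the WT arrays alone spanned more than 1 log2 unit.

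The members shared their order across arrays only in part. Taken over the 31 members detected on all 6 arrays, the median deviation from the WT mean was 0.21, -0.23 and -0.02 on WT replicates 1 to 3 and -0.70, -0.68 and -0.80 on *Cmah*-null replicates 1 to 3. All detected symbols had medians between -0.03 and 0.08 on the same arrays. *Cmah*-null replicate 3 was the lowest of all 6 arrays in 18 of the 31 members, and WT replicate 1 the highest in 16. *Cmah*-null replicates 1 and 2 never differed by more than 0.34 log2 units in a detected member. Replicate 3 lay below both of them in 22 members, most in *Ech1* by a difference of -1.73, *Acsl3* (-1.70), *Acaa2* (-1.23) and *Fabp3* (-1.07), and above both in 8, most in *Cpt1b* (1.60), *Acads* (0.71) and *Acox3* (0.51).

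**Figure D5:**
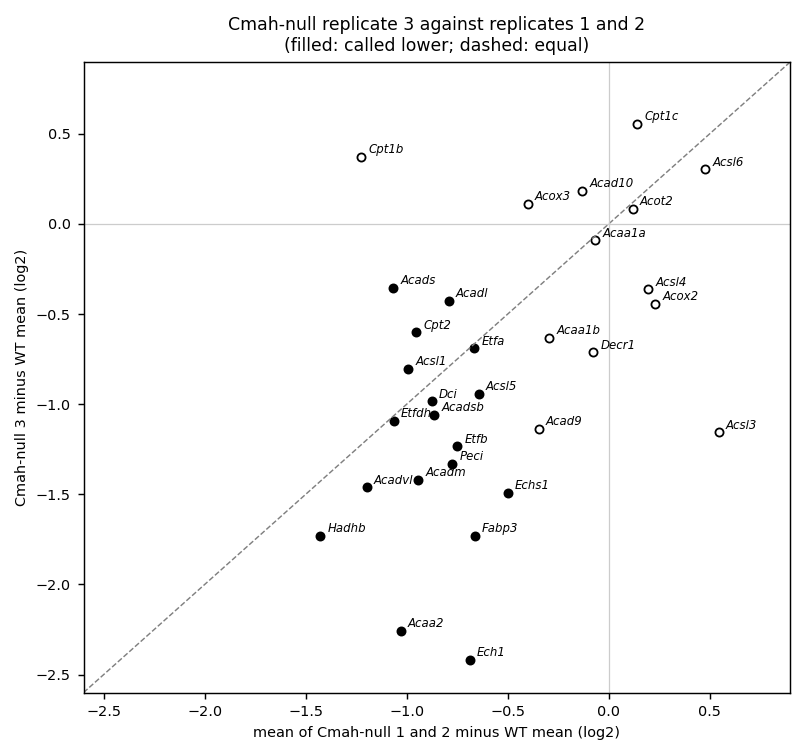
Log2 signal minus the WT mean for *Cmah*-null replicate 3 (vertical axis) against the mean of replicates 1 and 2 (horizontal axis), for the 31 members detected on all 6 arrays; filled points are genes called lower and the dashed line marks equal values. All 18 filled points lie below 0 on both axes, and *Cpt1b* lies farthest to the upper left with -1.22 and 0.37, with *Acox3* and *Acad10* also below 0 on the horizontal and above 0 on the vertical axis.

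Among the arrays with fewer beads per probe (WT replicate 1 and *Cmah*-null replicates 1 and 2), all 18 called genes were lower in *Cmah*-null mice, with a median difference of -1.21, and among the other 3 arrays all 18 were lower too, with a median of -1.15. Over all 37 members the medians were -0.64 and -0.52. Since the genes were called on these same arrays, the equal signs are no further test. WT replicate 1 is the only WT array of the first set, and *Cmah*-null replicate 3 the only null array of the second. Sizes were close in some called genes, such as *Etfb* (-1.03 with fewer beads, -1.09 on the others). They were uneven in others, such as *Acadsb* (-0.17 and -1.41), *Acadl* (-1.28 and -0.18), *Acads* (-1.22 and -0.28) and *Ech1* (-0.89 and -2.31). *Cpt1b*, not called, differed in sign between the sets, at -1.46 on the arrays with fewer beads and 0.49 on the others.

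With each array left out in turn 11 of the 18 calls held every time and 7 were lost at least once, always with the same sign. Without WT replicate 1 the differences were -0.43 in *Acadl* and -0.47 in *Etfa*, under 1.5-fold, and -0.94 in *Fabp3*, -0.65 in *Acsl1*, -0.62 in *Echs1* and -1.16 in *Ech1*, with limma unadjusted p of 0.061 to 0.139. *Ech1* also lost its call without WT replicate 2 (-1.45) or 3 (-1.19), *Fabp3* without WT replicate 3 (-0.97), and *Acadl* without *Cmah*-null replicate 1 (-0.61) or 2 (-0.61). Without *Cmah*-null replicate 3 *Ech1* and *Fabp3* kept their calls, with differences of -0.69 and -0.66, over 1.5 times nearer to 0 than with it. *Echs1* kept its call only without *Cmah*-null replicate 1, and ranged from -0.98 to -0.50 over the other arrays left out. *Acsl1* kept its call only without WT replicate 2, with values from -0.99 to -0.65 otherwise. *Acadsb* lost its call without WT replicate 2 (-0.82) or 3 (-0.70) and without *Cmah*-null replicate 2 (-0.94) or 3 (-0.86).

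Of the members 14 also stand in a list of fatty acid metabolism that was drawn up from these same arrays, and 13 of the 14 were called, which is no independent evidence of their direction. Outside that list 5 of 23 members were called (*Fabp3*, *Ech1*, *Etfa*, *Etfb* and *Etfdh*), and the median of these 23 was -0.14, against -0.92 for the 14.

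A wider set of 49 genes of fatty acid transport, peroxisomal oxidation, ketone metabolism and their regulators was set beside the members, and 46 were on the array. Of these 4 were called lower and 1 higher, with values below 0 in 35 and a median of -0.18. Besides *Slc25a20* the lower ones were *Pparg*, the nuclear receptor of fat cells, at -1.19 (SE 0.42), *Abcd2*, a peroxisomal transporter of very long chains, at -1.12 (SE 0.39, detected on 5 arrays), and *Ppargc1a*, a coactivator of mitochondrial genes that is also in the brown fat list, at -0.65 (SE 0.26). The gene called higher was *Slc27a3*, a fatty acid transport protein family member, at 0.73 (SE 0.26), although its groups overlapped. *Ppara*, the receptor best known to act on fatty acid oxidation genes, was detected on 2 of 6 arrays and had -0.09 (SE 0.12).

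Promoters of the members were searched for binding elements of the receptors that are known to act on this pathway. The windows ran from 250 bases before to 50 after each RefSeq start site (GRCm38.p6), and 32 members had one; *Acaa2*, *Acad9*, *Acat1*, *Cpt1b* and *Decr1* had none. The first element was DR1, the repeat of AGGTCA with 1 base between the copies that PPAR and RXR bind, with up to 2 mismatches on either strand, and it was found in 4 of 32 members (12.5 percent), 2 of 17 called ones (11.8 percent) and 4.0 percent of 13174 genes on the array with a window. The second was TCAAGGTCA, the element of estrogen-related receptors, without mismatches, which contains one AGGTCA copy of the first, and 1 of 32 members (3.12 percent) and 0.342 percent of genes on the array held it, and 0 of 17 called ones. Of the 15 members with a window that were not called, 2 (13.3 percent) held DR1 and 1 (6.67 percent) held the second element. The stretches with a match are shown so that the letters can be compared, with the match in capitals and in the direction of the gene. *Echs1* and *Etfa* were called lower, *Cd36* was detected on 1 array and *Acsl6* was not called.
Echs1 (chr7:140116472-140116524, reverse strand, DR1 from 83 bases before the start): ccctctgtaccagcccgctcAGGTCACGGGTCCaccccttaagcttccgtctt
Etfa (chr9:55512288-55512340, reverse strand, DR1 on the opposite strand from 77 bases before the start): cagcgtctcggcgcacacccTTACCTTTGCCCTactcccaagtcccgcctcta
Cd36 (chr5:17835927-17835979, reverse strand, DR1 on the opposite strand from 63 bases before the start): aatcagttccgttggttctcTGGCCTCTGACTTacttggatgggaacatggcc
Acsl6 (chr11:54303637-54303685, forward strand, TCAAGGTCA on the opposite strand from 167 bases before the start): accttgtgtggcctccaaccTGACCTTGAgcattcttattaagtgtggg
The remaining DR1 match was in *Acox2*, after its start site. A match of letters is a description and no evidence that a receptor binds there, and windows without a match say nothing about the receptors.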

How the data were processed

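Cochlear RNA of 3 WT and 3 *Cmah*-null mice was measured on Illumina MouseRef-8 v2.0 BeadChips, 6 arrays in all. The deposited raw table holds intensity values per probe without background subtraction, with a detection p-value per array that, per the file headers, comes from Illumina's export, and the number of beads. The deposited normalized table holds log2 values that the authors made by quantile normalization. Quantile normalization of the log2 raw signals gave the same values within 5.0e-07. The columns of fold changes, local pooled error statistics and adjusted p-values in the same table are the authors' own comparison and were not used. The software and the genome build of the probes are not given in the sources used here.

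Genotypes were compared on the log2 values by lmFit and eBayes (R 4.3.3, limma 3.58.1, two-sided, all 6 arrays, without covariates), and p-values were adjusted by Benjamini-Hochberg across the 25697 probes. Each gene stands by its brightest probe over the 6 arrays. Genes were counted at 1.5-fold with an unadjusted p under 0.05. An exact permutation test of 3 against 3 arrays cannot go below 0.1, so overlap of the groups is given in its place. Values on all arrays were given for called members and for members whose probes differ in sign. They were also given for the member with the smallest change in each step among those detected on all 6 arrays. The values of *Cpt1b*, *Cpt1c*, *Acsl6*, *Acad8*, *Decr1*, *Acox3* and *Acaa1b* were added after they were seen, and those of *Acaa1a* are given outside this rule too. The members and the lists of pathway and marker genes were chosen with earlier results of these data known. The procedure was tested on simulated data. Precision is limited by the number of arrays. Alternatives numbered 15, with 1 of them chosen after seeing the data.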

Additional observations from a re-analysis of the deposited data

How the results depend on the processing

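With the arrays scaled to one median instead of quantile normalized, 1 member was called lower (*Hadhb*) and the median of the members was -0.24, but this scaling also moved the median of all detected symbols from 0.04 to 0.34. Relative to that median the detected members lay at -0.65, against -0.79 with quantile normalization and -0.92 with neqc. Scaling on the median of probes detected on all arrays, chosen after seeing the data, called 15 members lower, 14 of them shared. Neqc called 18, with 17 shared. Each array left out in turn gave 12 to 16 called lower, 0 to 1 called higher (*Acsl6*, without WT replicate 1) and a median of -0.77 to -0.49; without WT replicate 1 the count was 12, and without *Cmah*-null replicate 3 the median was -0.50. With *Cmah*-null replicates 1 and 2 averaged as 1 sample 15 were called, and with the bead number as a block 20. The replicate number as a block gave 15, and the numbers do not pair the samples (correlations of deviations 0.03, -0.18 and 0.03). Filtering on detection, the variance prior and averaging probes each gave 18. No setting brought a member past an adjusted p of 0.05 in limma, the smallest ranging from 0.069 to 0.78. *Hadhb* was called under every setting, and no called member changed sign under any. Among the other detected members *Acsl3*, *Acsl4*, *Acad10*, *Decr1*, *Acot2*, *Acox2*, *Acox3* and *Acaa1a* changed sign under at least 1 setting, *Decr1* (-0.29 to 0.11) and *Acox3* (-0.23 to 0.12) under median scaling. Causes of these changes were not tested. Probes near background, such as those of *Cpt1a*, *Hadh*, *Acat1* and *Cd36*, allow no statement on their genes.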
